A study of Homo sapiens with 18 samples.

Results

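The comparison set 3 libraries of a stable p50 knockout against 3 libraries of the control, which carried a non-targeting guide. All came from GM12878, a human lymphoblastoid B-cell line transformed by Epstein-Barr virus (EBV). These are 6 of 18 libraries. The other 12 came from knockouts labelled p52, RelA, RelB and cRel, with 3 libraries each, and were used here for direct tests against the p50 knockout. Every group, the control included, carries the genotype label Wildtype LMP1, received guides by lentivirus and was selected with puromycin. The sources used here do not state whether a knockout was a mixed population or 1 clone, nor how the replicates were separated, so p-values reflect variation among libraries only. Polyadenylated RNA was measured as normalised read counts, and the 12381 of 17155 genes with a mean of at least 10 over the 18 libraries were tested. The gene nearest inside that limit was UGDH-AS1 with a mean of 10.0, and the nearest outside was NT5C1A with 9.99. A gene was called at an adjusted p under 0.05 by limma on log2(value + 1). Where group means are given, the spread is the SD with n = 3 per group. By the threshold 4539 genes (36.7% of those tested) differed between p50 knockout and control, 2109 higher (17.0%) and 2430 lower (19.6%) in the knockout. At least 2-fold differences were fewer, with 205 genes higher (1.66%) and 77 lower (0.622%).

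The 6 libraries held 20.3 to 37.5 M reads. All 12 lymphoblastoid markers were above the limit, with the B-cell antigen MS4A1 (CD20) at 25219, 24184 and 24337 in the control libraries and 22986, 21626 and 24273 in the p50 knockout. Of the T-cell chains CD3D was at most 1.63 and CD3E was 12.8 to 20.0 in the 6 libraries, and CD4, CD5 and KLRD1 reached 10.8, 15.8 and 14.8. GNLY was 22.05 to 33.6 in the control and 4.9 to 16.3 in the p50 knockout. Of the monocyte markers CD14 was at most 3.16, and LYZ and VCAN reached 10.5 and 30.2. The summed T and NK markers, mostly NKG7, were 413 to 561 in the control and 447 to 496 in the p50 knockout. The summed myeloid markers were 545 to 556 and 856 to 935, a difference carried by CSF1R and ITGAM, which were both called higher. The summed fibroblast and epithelial markers, mostly COL1A1, were 1335 to 1501 in the control and 975 to 1300 in the p50 knockout. COL1A1 was called lower and CDH1 higher. The part of these genes in the results was not tested. Transcript length set library 3 of the control apart from the other controls. Its deviation from the mean of the 3 control libraries had a rank correlation across genes with length of -0.45, against 0.24 and 0.36 in libraries 1 and 2. Such deviations cancel within a group, so the opposite signs are partly forced. Library 3 of the p52 knockout and library 2 of the RelA knockout had -0.38 and -0.31 within their own groups. The log2 fold change of p50 knockout against control had a rank correlation of 0.15 with length over 12363 genes, and of 0.043 without control library 3. Results that rest on that control library are given with and without it.

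NFKB1 encodes the precursor p105, which is processed to p50. The p50 subunit binds DNA through its Rel homology domain but has no activation domain of its own. It acts in dimers with RelA or cRel, or as a homodimer that can occupy kB sites without activating transcription or can recruit the atypical IkB proteins BCL3 and IkB-zeta. In EBV-transformed B cells the viral protein LMP1 keeps both the canonical and the non-canonical NF-kB pathway active.

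NFKB1, the targeted gene, had values of 7418, 6895 and 6885 in the control libraries and 4748, 4666 and 4640.4 in the p50 knockout (log2 fold change -0.59, SE 0.061, adjusted p = 3.1e-07). All 3 knockout libraries were below all 3 controls, as in 45.0% of tested genes for either direction. The mRNA fell 1.51-fold, and it says nothing about the protein, which the labels' protocols state was checked by immunoblot. The other groups had NFKB1 means of 6416 in the p52, 5138 in the RelA, 5794 in the RelB-labelled and 7746 in the cRel-labelled libraries, and p50 knockout libraries were lower than each except the RelA knockout, where the difference missed the threshold (-0.13, adjusted p = 0.091). Of the partner subunits only RELB passed the test, at 3422, 3137 and 3399.6 in the control libraries and 3931, 4069 and 3682 in the p50 knockout (log2 fold change 0.23, SE 0.063, adjusted p = 0.0063). NFKB2, the p100/p52 gene, had a log2 fold change of 0.06 (adjusted p = 0.41) and RELA one of 0.11 (adjusted p = 0.17). REL was at 1554, 1717 and 856 in the control libraries and 1154, 1065 and 1078 in the p50 knockout, where 1 low control library lay below all 3 knockouts (adjusted p = 0.29). RELB averaged 4107 in the RelB-labelled libraries against 3319 in the control, and REL averaged 1298 in the cRel-labelled libraries against 1376, so in these 2 groups the targeted mRNA was not lower by more than the spread between libraries. They are therefore called RelB-labelled and cRel-labelled below.

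Among the 7 tested IkB family genes 3 were lower (42.9%) and 1 higher (14.3%), against 19.6% and 17.0% of all tested genes. NFKBIA, whose product IkB-alpha holds dimers in the cytoplasm and is itself induced by NF-kB, was at 6812, 6730.1 and 7313 in the control libraries and 3983, 4202 and 3779 in the p50 knockout (log2 fold change -0.80, SE 0.067, adjusted p = 1.7e-08), with no overlap. Its difference from the RelB-labelled libraries missed the threshold (p50 minus RelB-labelled -0.03, adjusted p = 0.69) and its level was lower still in the RelA knockout (p50 minus RelA 0.28, adjusted p = 0.0021). NFKBIZ, which encodes the p50-binding coactivator IkB-zeta, was at 459, 496 and 397 in the control libraries and 315, 322 and 328 in the p50 knockout (log2 fold change -0.48, SE 0.090, adjusted p = 2.9e-04). BCL3, another partner of p50 homodimers, was at 1071, 1193 and 1292 in the control libraries and 1117, 864 and 935 in the p50 knockout. Its knockout library 1 lay above control library 1, and the difference was smaller (log2 fold change -0.29, SE 0.087, adjusted p = 0.012). NFKBIL1 was higher, at 201, 268 and 213 in the knockout against 183, 161 and 180.3 (log2 fold change 0.37, SE 0.14, adjusted p = 0.039).

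Promoters of NFKB1, NFKBIA and NFKBIZ hold matches to the kB consensus, the 10-base NF-kB recognition motif, in the 250 bases before the RefSeq transcription start. Windows around such matches are shown for these feedback genes and for OAS3, TAP1, IL23A, EPHA3 and GIMAP8, which are described below and which differed between the p50 knockout and every other group. For TAP1, IL23A and GIMAP8 the rule was no longer met with at least 1 library left out. Each is read 5′ to 3′ on the gene's strand, in RefSeq's GRCh38.p14, with the match in capitals. NFKB1 is from chr4:102501280-102501349 (plus strand), NFKBIA from chr14:35404791-35404860 (minus strand), NFKBIZ from chr3:101827740-101827806 (plus strand), OAS3 from chr12:112938314-112938383 (plus strand), TAP1 from chr6:32853737-32853806 (minus strand), IL23A from chr12:56338759-56338828 (plus strand), EPHA3 from chr3:89107537-89107606 (plus strand) and GIMAP8 from chr7:150450496-150450565 (plus strand).
NFKB1: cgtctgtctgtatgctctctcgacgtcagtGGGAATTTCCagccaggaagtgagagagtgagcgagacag
NFKBIA: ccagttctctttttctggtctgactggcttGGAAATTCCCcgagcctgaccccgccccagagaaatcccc
NFKBIZ: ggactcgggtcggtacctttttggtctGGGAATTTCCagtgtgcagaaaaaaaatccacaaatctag
OAS3: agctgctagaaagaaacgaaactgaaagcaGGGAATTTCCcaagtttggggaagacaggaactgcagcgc
TAP1: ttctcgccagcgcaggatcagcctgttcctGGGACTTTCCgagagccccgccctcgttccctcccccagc
IL23A: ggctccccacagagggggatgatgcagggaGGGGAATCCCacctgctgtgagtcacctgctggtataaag
EPHA3: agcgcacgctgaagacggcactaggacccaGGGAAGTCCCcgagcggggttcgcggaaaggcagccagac
GIMAP8: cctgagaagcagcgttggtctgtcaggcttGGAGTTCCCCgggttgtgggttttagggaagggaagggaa
NFKB1, NFKBIZ and OAS3 share the same 10 bases on the gene's strand. In OAS3 and EPHA3 a second match overlaps the one shown, shifted by a base. Both strands were searched, so a palindromic match counts once per promoter. Among all 27305 RefSeq promoters 9.57% held a match, and among the 9953 tested genes found there 11.6% did. The share was 13.8% of 1656 genes called higher, 11.4% of 2033 called lower and 11.2% of 6264 not called. A match describes letters only, and it was not tested whether any dimer binds these windows in these cells.

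A gene was counted as p50-only when it was called against the control and, in the same direction, in each direct test of the p50 knockout against the 4 other knockout groups. Those direct tests called 2749 genes against the p52 knockout (22.2%), 3855 against the cRel-labelled libraries (31.1%), 4853 against the RelA knockout (39.2%) and 6575 against the RelB-labelled libraries (53.1%). In the p50 knockout 11.2% of tested genes were higher and 11.0% lower than in the p52 knockout, 19.2% and 20.0% than in the RelA knockout, 27.7% and 25.4% than in the RelB-labelled libraries, and 15.3% and 15.9% than in the cRel-labelled libraries. Against p52 this was 1387 higher genes, and 883 without p50 library 1. The rule held for 175 genes (1.41% of those tested), 78 higher (0.630%) and 97 lower (0.783%). These tests share the p50 libraries, so the count is a description of the overlap and not a further test. In 71 of the 78 and 84 of the 97 genes the 3 p50 libraries overlapped with none of the other 15, against 2.31% of all tested genes (1.16% higher and 1.15% lower). The rule favours such separation in these same libraries, so these shares are a description and no separate support. The differences were moderate: 15 of the higher and 14 of the lower genes differed at least 2-fold from the control, with median log2 fold changes of 0.49 and -0.56. For 58 of the higher and 75 of the lower genes, the means of the other 4 knockout groups lay on both sides of the control mean. For 14 and 20 genes all 4 lay on the side away from the p50 knockout, and for 6 and 2 genes all 4 lay on the same side as the p50 knockout but less far. A kB consensus stood in 13 of 60 matched promoters of the higher genes (21.7%) and 16 of 80 of the lower (20.0%).

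**Figure D1:**
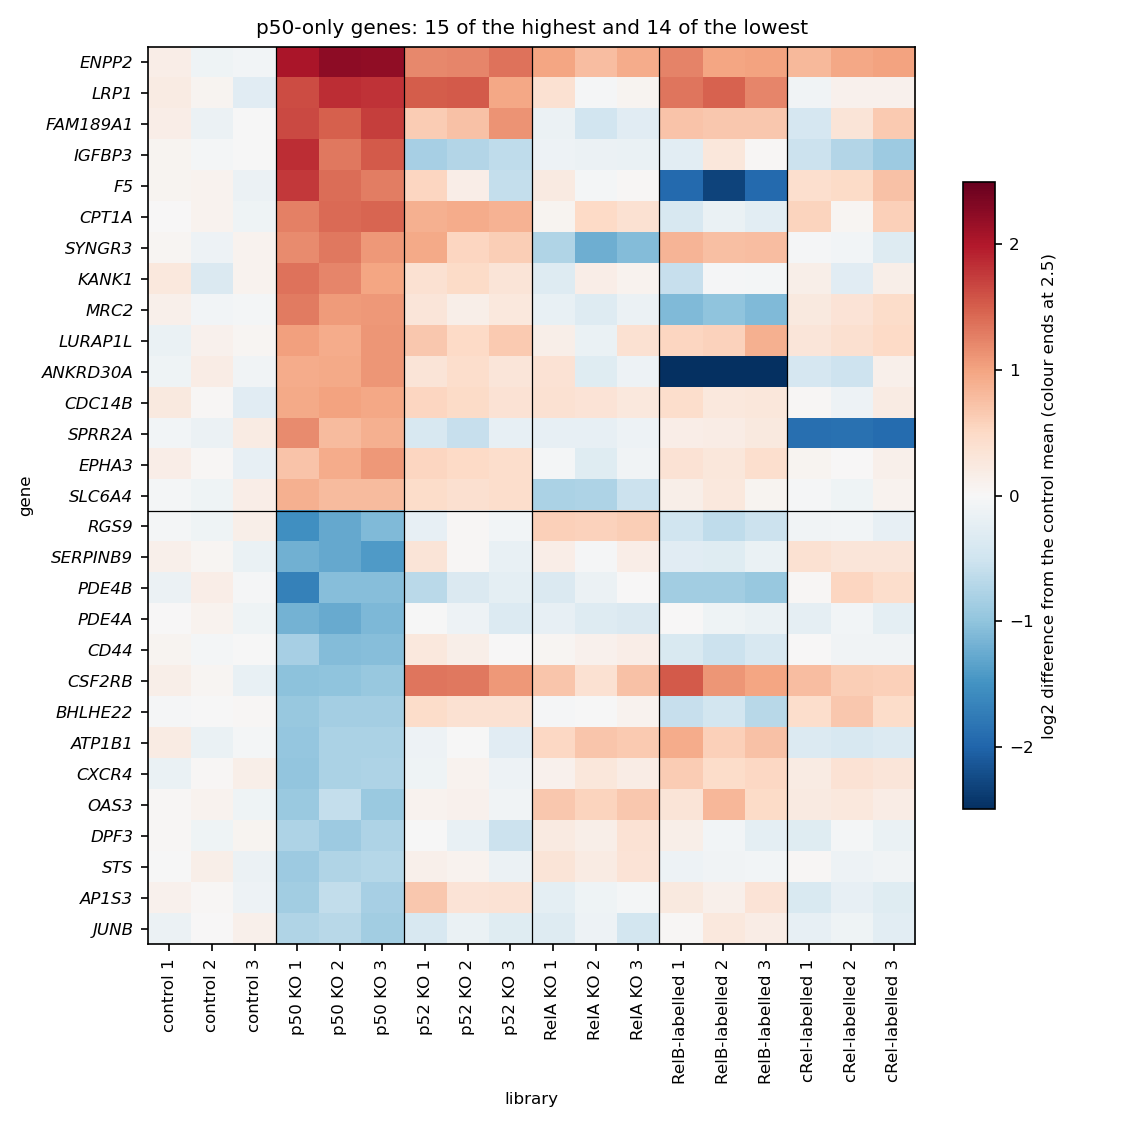
Among p50-only genes with a mean of at least 100 in the higher group and no overlap with the controls, the heat map shows the 15 with the highest and 14 of the 15 with the lowest log2 fold change (rows) in the 18 libraries (columns), as the log2 difference from the mean of the 3 controls. The 3 p50 columns are the reddest of each upper row and the bluest of each lower row, and ENPP2 and LRP1 were also above the control in other knockout groups.

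The 77 genes that met the rule in every setting and with every library left out (30 higher, 47 lower) included ENPP2, IGFBP3, MRC2, EPHA3, SLC6A4, KANK1, CDC14B, SPRR2A, FYN, HMOX1, TNFRSF13B and GIMAP7 among the higher genes named here. Among the lower they included all of the 15 lowest described here except PDE4B, and also CD86, LSP1, XAF1, ETS1, SOCS1, DTX3L and COL1A1. The other genes called p50-only here lost that status under at least 1 setting or left-out library. ENPP2 encodes autotaxin, the secreted enzyme that makes lysophosphatidic acid. It was at 213, 175 and 179 in the control libraries and 778, 888 and 877 in the p50 knockout (log2 fold change 2.16, SE 0.094, adjusted p = 8.5e-13). Every other knockout was also above the control, with means of 454 in the p52, 351 in the RelA, 400.0 in the RelB-labelled and 360.3 in the cRel-labelled libraries, and the p50 knockout exceeded each of them by 0.90 against p52, 1.27 against RelA, 1.08 against RelB-labelled and 1.23 against cRel-labelled libraries. LRP1, an endocytic receptor of the LDL receptor family, was at 197, 178 and 141 in the control libraries and 532, 612 and 601 in the p50 knockout (log2 fold change 1.76, SE 0.14, adjusted p = 7.6e-09). The p52 and RelB-labelled groups, with means of 442 and 435, lay between, and the RelA and cRel-labelled groups averaged 190 and 176. IGFBP3, a binding protein of insulin-like growth factors, was at 154, 143 and 146 in the control libraries and 534, 369 and 427 in the p50 knockout (log2 fold change 1.56, SE 0.14, adjusted p = 4.4e-08). The other groups had means of 88.8 in the p52, 134 in the RelA, 151 in the RelB-labelled and 89.2 in the cRel-labelled libraries. CPT1A, the enzyme that commits long-chain fatty acids to mitochondrial oxidation, was at 95.9, 102 and 87.9 in the control libraries and 229, 255 and 262 in the p50 knockout (log2 fold change 1.38, SE 0.14, adjusted p = 2.1e-07).

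F5, coagulation factor V, rose from 42.0 ± 3.90 to 119.8 ± 22.1 and was far lower in the RelB-labelled libraries, with a mean of 9.35. EPHA3, an ephrin receptor tyrosine kinase whose kB window is shown above, was at 318, 289 and 243 in the control libraries and 462, 538 and 594 in the p50 knockout (log2 fold change 0.91, SE 0.10, adjusted p = 1.0e-06). SLC6A4, the serotonin transporter, was at 397, 382 and 459 in the control libraries and 762, 709 and 716 in the p50 knockout (log2 fold change 0.82, SE 0.086, adjusted p = 4.3e-07), with 253 in the RelA knockout as the lowest group mean. MRC2, an endocytic collagen receptor, rose from 111 ± 8.35 to 246 ± 21.9. KANK1, a regulator of actin and focal adhesions, rose from 99.3 ± 21.4 to 225 ± 29.3, and SYNGR3, a synaptic vesicle protein, from 114 ± 8.84 to 261 ± 20.7. CDC14B, a phosphatase of the cell cycle, rose from 277 ± 50.5 to 539 ± 8.62. FAM189A1, LURAP1L and ANKRD30A completed the list with log2 fold changes of 1.63, 1.01 and 0.99. ANKRD30A was low in the RelB-labelled libraries, with a mean of 7.68 against 138 in the p50 knockout. SPRR2A rose from 184 ± 23.9 to 358 ± 52.7, but its reads may be shared with near-identical SPRR2 copies, so its value is uncertain.

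The largest fold differences of all p50-only genes belonged to ERBB4 and LEF1, which are named after their values were seen since both stayed below a mean of 100. They are also the 2 p50-only genes that passed the limit of a mean of 10 only through the p50 libraries, with means of 7.01 and 7.46 over the other 15, so their values are given as a description without a test. ERBB4, a neuregulin receptor of the EGF receptor family, was at 5.51, 5.91 and 7.76 in the control libraries and 92.3, 80.1 and 83.3 in the p50 knockout, and at a mean of 13.7 in the p52 knockout. LEF1, the nuclear partner of beta-catenin and an early lymphoid factor, was at 8.82, 9.86 and 4.52 in the control libraries and 53.4, 49.5 and 50.6 in the p50 knockout. The remaining groups had LEF1 means between 3.79 and 11.7. Abundant p50-only genes that rose by less were the kinase gene PIM1 (from 3150.1 ± 24.6 to 4037 ± 279) and, named after their values were seen, the dendritic and B-cell activation marker CD83 (from 4937 ± 323 to 5939.8 ± 294), the haem oxygenase gene HMOX1 (from 1498 ± 129 to 2239 ± 112) and TNFRSF13B, which encodes the BAFF and APRIL receptor TACI (from 3536 ± 387 to 4465 ± 71.3). For CD83 the direct difference from the p52 knockout was small (0.17, adjusted p = 0.047), and that from the RelA knockout was 1.08.

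Among the lowest p50-only genes was SERPINB9, the granzyme B inhibitor that shields lymphocytes from cytotoxic granules, at 1700.4, 1622 and 1389.6 in the control libraries and 681, 640.4 and 586 in the p50 knockout (log2 fold change -1.30, SE 0.098, adjusted p = 4.0e-09). The other groups averaged 1638 in the p52, 1684 in the RelA, 1314 in the RelB-labelled and 1970.5 in the cRel-labelled libraries, and no library of theirs was as low as any p50 library. CD44, the hyaluronan receptor, was at 1507, 1396 and 1438 in the control libraries and 809.8, 684 and 690.2 in the p50 knockout (log2 fold change -0.99, SE 0.075, adjusted p = 3.7e-09), with the RelB-labelled group next at 1069. CXCR4, the receptor for CXCL12, was at 3095, 3516 and 3806 in the control libraries and 1747, 2000.3 and 2024 in the p50 knockout (log2 fold change -0.85, SE 0.080, adjusted p = 1.1e-07), whereas the RelA, RelB-labelled and cRel-labelled groups averaged 3959, 5015 and 4225.

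Both genes of cyclic AMP breakdown that met the rule and were lower belonged to the PDE4 family. PDE4A was at 451, 481 and 419 in the control libraries and 199, 186 and 207 in the p50 knockout (log2 fold change -1.19, SE 0.091, adjusted p = 4.2e-09) and PDE4B at 289, 358 and 312 in the control libraries and 97.7, 153 and 151 in the p50 knockout (log2 fold change -1.27, SE 0.16, adjusted p = 3.4e-06). Each encodes a phosphodiesterase that hydrolyses cyclic AMP. PDE4D, another family member named after its values were seen, had a log2 fold change of -0.08 (adjusted p = 0.76). RGS9, which speeds the shut-off of G-protein alpha subunits, was at 181, 174 and 206 in the control libraries and 63.3, 75.8 and 86.6 in the p50 knockout (log2 fold change -1.31, SE 0.11, adjusted p = 2.3e-08). CSF2RB, the shared beta chain of the IL-3, IL-5 and GM-CSF receptors, was at 193, 181 and 153 in the control libraries and 85.1, 86.4 and 90.7 in the p50 knockout, and every other knockout group lay above the control, between 268 and 419. JUNB, an AP-1 subunit, was at 4666, 5226 and 5642 in the control libraries and 3056, 3205 and 2828 in the p50 knockout (log2 fold change -0.77, SE 0.086, adjusted p = 9.2e-07).

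Others of the 15 lowest covered several functions. OAS3, an interferon-induced oligoadenylate synthase whose kB window is shown above, was at 122, 128 and 111 in the control libraries and 62.4, 79.0 and 62.9 in the p50 knockout (log2 fold change -0.82, SE 0.13, adjusted p = 4.0e-05). STS, steroid sulfatase, fell from 1173 ± 112 to 679 ± 47.5. BHLHE22, a basic helix-loop-helix factor, fell from 1271 ± 28.2 to 692 ± 26.1. ATP1B1, the beta subunit of the sodium pump, fell from 223 ± 29.7 to 123 ± 9.05. DPF3, a subunit of a BAF chromatin remodelling complex, fell from 234 ± 14.9 to 132 ± 7.06, and AP1S3, an adaptor subunit of clathrin coats, fell with a log2 fold change of -0.77. TAP1 and IL23A, with kB windows shown above, changed less. TAP1, the peptide transporter of MHC class I loading, was at 2668, 2788 and 2875 in the control libraries and 2334, 2508 and 2504 in the p50 knockout (log2 fold change -0.18, SE 0.052, adjusted p = 0.0091). IL23A, the IL-23 alpha chain, was at 178, 174 and 257 in the control libraries and 159, 143 and 165 in the p50 knockout (log2 fold change -0.35, SE 0.12, adjusted p = 0.023). ETS1 and SOCS1 were also p50-only and lower, with log2 fold changes of -0.25 and -0.40. TAP1, IL23A and ETS1 are named after their values were seen.

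**Figure D2:**
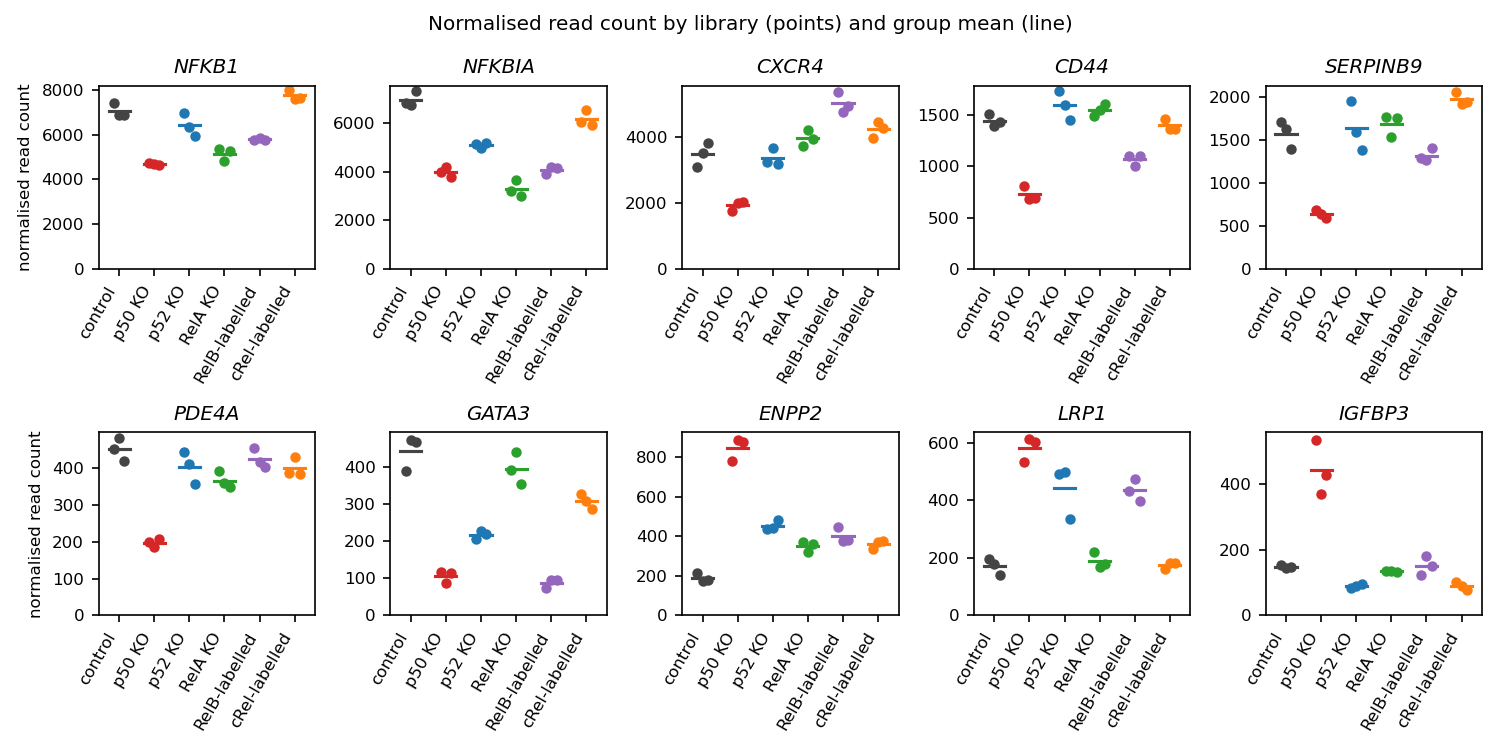
Each panel gives the normalised read count of 1 gene in each of the 18 libraries (points, by group) with the group mean (line), from 0. NFKB1, NFKBIA and GATA3 were low in the p50 knockout and also in some other groups, whereas CXCR4, CD44, SERPINB9 and PDE4A were lowest, and ENPP2, LRP1 and IGFBP3 highest, in the p50 knockout.

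Cell-surface receptors and their ligands moved in both directions, and fewer cells of a kind cannot be told apart from less RNA per cell in such bulk libraries. Of 9 tested chemokine receptors 4 were lower (44.4%) and 3 higher (33.3%), against 19.6% and 17.0% of all tested genes. CXCR3, the receptor for interferon-induced chemokines, was at 530.4, 638 and 670.2 in the control libraries and 188, 118 and 144 in the p50 knockout (log2 fold change -2.04, SE 0.15, adjusted p = 3.2e-09). ACKR3, the scavenger receptor that binds CXCL12 like CXCR4 does, was at 260.2, 254 and 289.6 in the control libraries and 708, 985 and 876 in the p50 knockout (log2 fold change 1.66, SE 0.12, adjusted p = 1.7e-09), so the receptors of this ligand moved in opposite directions. CCR7, which guides B cells to lymph nodes, was at 8544, 8103 and 8725 in the control libraries and 9633, 10533 and 10983 in the p50 knockout (log2 fold change 0.29, SE 0.057, adjusted p = 4.3e-04). Among 10 TNF superfamily ligands 4 were lower (40.0%) and 0 higher. LTA, lymphotoxin alpha, was at 675, 585 and 827 in the control libraries and 404, 292 and 371 in the p50 knockout (log2 fold change -0.96, SE 0.13, adjusted p = 8.7e-06), TNF fell from 380.0 ± 45.0 to 279 ± 11.1 and TNFSF4, OX40 ligand, from 121 ± 0.611 to 76.7 ± 9.60.

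Of 24 TNF receptor superfamily members 9 were higher (37.5%) and 3 lower, against 17.0% and 19.6% of all tested genes. TNFRSF13C, the BAFF receptor, was at 419, 367 and 338 in the control libraries and 707, 770.0 and 635 in the p50 knockout (log2 fold change 0.91, SE 0.094, adjusted p = 3.1e-07), TNFRSF14 (HVEM) rose from 1297 ± 87.6 to 1944 ± 175 and TNFRSF19 from 82.5 ± 10.7 to 149 ± 16.9. TNFRSF11A, the receptor RANK, was p50-only, at 958, 800.5 and 742 in the control libraries and 493, 564 and 509.7 in the p50 knockout (log2 fold change -0.67, SE 0.089, adjusted p = 8.2e-06). In direct tests 12 of the 24 were lower and 2 higher in the p50 than in the p52 knockout, and 12 were higher and 4 lower than in the RelA knockout. Of all tested genes 11.0% were lower and 11.2% higher than in p52, and 19.2% higher and 20.0% lower than in RelA.

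Of the 8 tested SLAM receptors and their signalling partners 5 were higher (62.5%) and 0 lower, with a median log2 fold change of 0.30. Against the control 17.0% of all tested genes were higher and 19.6% lower. In direct tests 5 of the 8 were lower and 1 higher than in the p52 knockout, and 6 and 1 than in the RelB-labelled libraries. Against the RelA knockout 5 were higher and 1 lower, and against the cRel-labelled libraries 4 and 1. SLAMF1 was at 2989.5, 2599.6 and 2966 in the control libraries and 4076, 4076 and 4618 in the p50 knockout (log2 fold change 0.58, SE 0.071, adjusted p = 3.3e-06), SLAMF6 at 1179.9, 1071 and 1119 in the control libraries and 1742, 1691 and 2043 in the p50 knockout (log2 fold change 0.70, SE 0.086, adjusted p = 3.3e-06), and CD48 rose from 6795 ± 531 to 10007 ± 795. The kinase gene FYN was p50-only and rose from 6179.8 ± 316 to 7937 ± 329.7. Of 17 costimulatory and checkpoint genes 8 were higher (47.1%) and 3 lower. Directly, 7 of the 17 were lower and 1 higher than in the p52 knockout, and 13 and 0 than in the RelB-labelled libraries. Against the RelA knockout 11 were higher and 4 lower, and against the cRel-labelled libraries 6 and 5. Of all tested genes 11.0% were lower and 11.2% higher than in p52, and 25.4% and 27.7% than in the RelB-labelled libraries. Against RelA 19.2% of them were higher and 20.0% lower, and against the cRel-labelled libraries 15.3% and 15.9%. CD274, the checkpoint ligand PD-L1, was at 654, 538 and 615 in the control libraries and 974, 1055 and 1126 in the p50 knockout (log2 fold change 0.81, SE 0.081, adjusted p = 2.3e-07). BTLA rose from 753 ± 24.9 to 1137 ± 56.8 and BTN3A1 from 450.1 ± 28.0 to 693 ± 105, the latter with reads that may be shared with BTN3A2 and BTN3A3. CD86, a ligand of CD28 on T cells, was p50-only and was at 1204, 1164 and 1315 in the control libraries and 849, 882 and 917 in the p50 knockout (log2 fold change -0.47, SE 0.065, adjusted p = 1.0e-05). The 8 higher genes were 5 without control library 2, p50 library 2 or p50 library 3, each left out alone.

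Genes of B-cell receptor signalling were called near the background share, 7 of 32 higher (21.9%) and 8 lower (25.0%), the latter 5 after quantile normalization. CD79A, a signalling chain of the receptor, was p50-only and was at 5045, 5099.6 and 6059 in the control libraries and 3812, 3709.9 and 3660.2 in the p50 knockout (log2 fold change -0.53, SE 0.063, adjusted p = 2.1e-06). PTPRC (CD45) was at 4151, 4484 and 3754 in the control libraries and 2562, 2448 and 2622 in the p50 knockout (log2 fold change -0.70, SE 0.070, adjusted p = 2.6e-07), whereas the kinase BLK rose from 4111 ± 208 to 5773 ± 447 and the inhibitory receptor CD22 from 3943 ± 160.1 to 5228 ± 163. Phosphodiesterases, adenylyl cyclases and their partners were likewise near the background, with 6 of 32 higher and 8 lower. Beside PDE4A and PDE4B, PDE3B fell from 199 ± 36.0 to 112 ± 11.0 and PDE7A from 1266 ± 62.2 to 964 ± 75.7. Of 14 RGS genes 5 were lower (35.7%) and 2 higher (14.3%). The 5 were 2 when only genes with a mean of at least 100 were tested. RGS16 was at 1649, 1781 and 2086 in the control libraries and 1121, 1201 and 1122 in the p50 knockout (log2 fold change -0.67, SE 0.086, adjusted p = 5.0e-06), while RGS3 and RGS14 rose with log2 fold changes of 0.20 and 0.26. Among 44 orphan G-protein-coupled receptors 9 were higher (20.5%) and 10 lower (22.7%), near the 17.0% and 19.6% of all tested genes. GPR160, GPR55 and GPR132 fell with log2 fold changes of -0.62, -0.62 and -0.52, and GPR63 rose with 0.56.

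The transcription factor lists differed in their shares. IRF and STAT factors were near the background, with 4 of 19 lower (21.1%) and 3 higher, as were EGR, KLF and NR4A factors, with 4 of 24 lower (16.7%) and 4 higher. Of 19 GATA, TBX, RUNX and related factors 9 were lower (47.4%) and 3 higher, against 19.6% and 17.0% of all tested genes. The 3 include LEF1, which passed the limit on the mean only through the p50 libraries. GATA3, the T-helper and epithelial factor, was at 390.4, 474 and 467 in the control libraries and 117, 87.4 and 114 in the p50 knockout (log2 fold change -2.06, SE 0.13, adjusted p = 1.4e-10). It was not p50-only, since its mean in the RelB-labelled libraries was 88.1. RUNX1 fell from 426 ± 63.2 to 300.0 ± 35.0, its partner CBFB from 4638 ± 268 to 4047 ± 236 and TOX2 from 1993 ± 138 to 1570.1 ± 186. Of 31 B-lineage factors 11 were lower (35.5%) and 4 higher. PRDM1, which encodes the plasma-cell factor Blimp-1, was at 830.4, 979 and 899.7 in the control libraries and 419, 420.3 and 475 in the p50 knockout (log2 fold change -1.04, SE 0.099, adjusted p = 1.2e-07). LMO2 and ID2 fell from 193 ± 11.9 to 104 ± 16.3 and from 3332 ± 219 to 2305 ± 213, and EBF1, an early B-cell factor, rose from 1138 ± 57.7 to 1502 ± 59.8. Of 10 AP-1 genes 4 were lower and 1 higher: JUN, like JUNB, was p50-only and fell from 228 ± 44.6 to 155 ± 10.6, JUND fell with -0.25, and BATF rose with 0.27. The 4 were 2 without control library 3.

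Interferon-induced families did not move as 1 block. All 4 tested OAS genes were lower, against 19.6% of all genes, with log2 fold changes from -1.17 for OASL to -0.53 for OAS2. OAS2 was at 1045, 1101 and 984 in the control libraries and 639, 750.0 and 789 in the p50 knockout (log2 fold change -0.53, SE 0.078, adjusted p = 2.5e-05) and OAS1 at 242, 222 and 291 in the control libraries and 166, 157 and 189.5 in the p50 knockout (log2 fold change -0.55, SE 0.13, adjusted p = 0.0027). In each of the 4 genes the 3 knockout libraries were below all controls, as in 23.8% of all tested genes. Of 38 IFIT, IFI, MX and related genes 18 were lower (47.4%) and 5 higher. XAF1 was at 304, 323 and 334 in the control libraries and 173, 217 and 212 in the p50 knockout (log2 fold change -0.68, SE 0.097, adjusted p = 1.6e-05) and was p50-only, as were HERC6, EPSTI1, DTX3L, IFIT5 and PARP9, all lower. IFITM1 and IFITM2, which are similar enough to share reads, fell with log2 fold changes of -0.86 and -0.79. Against these, IFIT3 was at 1611, 1306 and 1578 in the control libraries and 2196, 2343 and 2468 in the p50 knockout (log2 fold change 0.64, SE 0.076, adjusted p = 2.0e-06). Against the RelA knockout 25 of the 38 were lower in the p50 knockout and 4 higher, and against the RelB-labelled libraries 25 were lower and 3 higher. Fewer differed from the p52 knockout (11 lower, 2 higher) and the cRel-labelled libraries (15 lower, 4 higher). Of all tested genes 20.0% were lower and 19.2% higher than in RelA, and 25.4% and 27.7% than in the RelB-labelled libraries. Against p52 these shares were 11.0% and 11.2%, and against the cRel-labelled libraries 15.9% and 15.3%. Of the 4 OAS genes 4 were lower than in RelA, 4 than in RelB-labelled, 3 than in cRel-labelled and 1 than in p52 libraries, with 0 higher. The OAS medians in p52 libraries 1, 2 and 3 were -0.62, -0.57 and -0.40 relative to the control mean, so the p52 knockout shared much of this difference.

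GIMAP genes encode small GTPases of lymphocyte survival that lie in a cluster. All 7 tested were higher, against 17.0% of all genes, with log2 fold changes from 0.21 for GIMAP6 to 0.86 for GIMAP4. GIMAP8 was at 388, 350.0 and 329 in the control libraries and 575, 646 and 639.6 in the p50 knockout (log2 fold change 0.80, SE 0.084, adjusted p = 4.4e-07), GIMAP4 at 259, 239 and 255 in the control libraries and 451, 428 and 492 in the p50 knockout, GIMAP5 at 362, 339 and 438 in the control libraries and 634, 565 and 674 in the p50 knockout and GIMAP1 at 157, 145 and 186 in the control libraries and 236, 283 and 271 in the p50 knockout. GIMAP1 and GIMAP5 are neighbours whose reads may be shared through joined transcripts. The medians over the 7 genes were 0.54, 0.58 and 0.74 in p50 libraries 1, 2 and 3, on the log2 scale relative to the control mean. On the same scale they were 0.53, 0.59 and 0.53 in p52 libraries 1, 2 and 3, near those of the p50 knockout. In cRel-labelled libraries 1, 2 and 3 they were -0.84, -0.76 and -0.71, below the control mean. All 7 were higher in the p50 than in the cRel-labelled libraries (median difference 1.40), 5 than in the RelA knockout, 5 than in the RelB-labelled libraries and 2 than in the p52 knockout. Of all tested genes 15.3%, 19.2%, 27.7% and 11.2% were higher than in these groups, in that order. GIMAP7 and GIMAP8 met the p50-only rule.

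**Figure D3:**
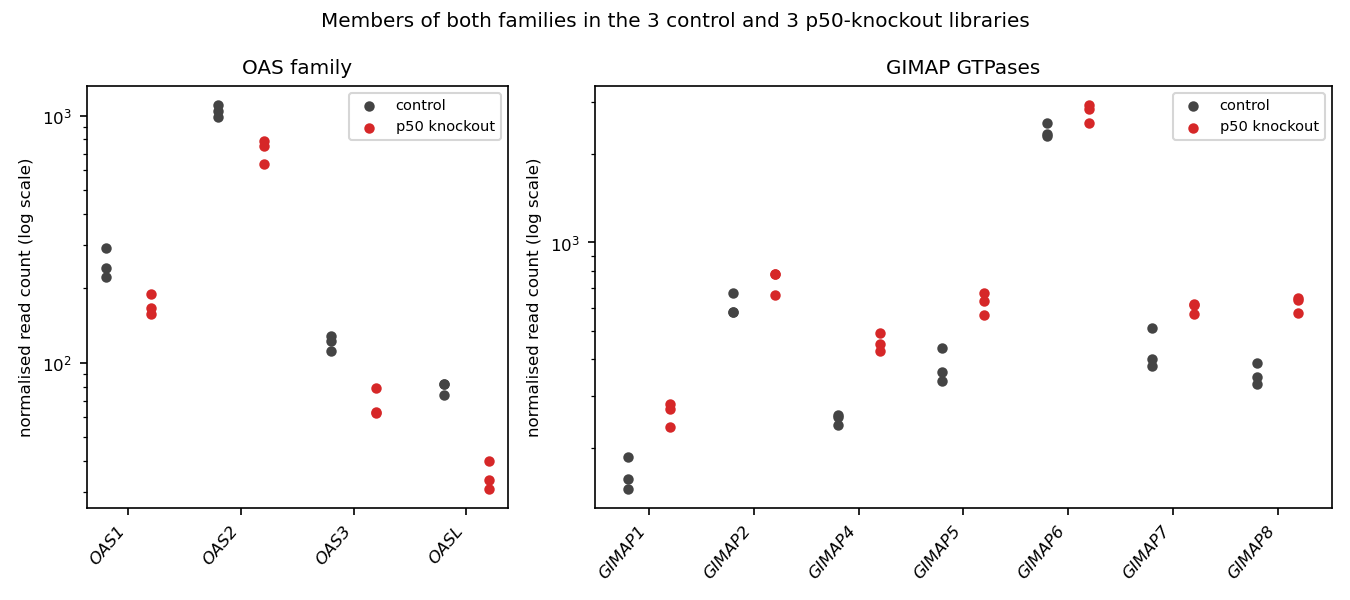
Points give the normalised read count, on a log scale, of each tested OAS family gene (left) and GIMAP gene (right) in the 3 control and 3 p50-knockout libraries. The 4 OAS genes lie lower and the 7 GIMAP genes higher in the knockout, and the groups overlap only for GIMAP2 and GIMAP6. Of all tested genes 23.8% had every p50 library below every control, and 21.2% had every p50 library above.

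Genes of cell division were lower in large shares. Of all tested genes 19.6% were lower and 17.0% higher, with a median log2 fold change of -0.003. Of 33 genes of replication licensing and origins, 25 were lower (75.8%) and 0 higher, with a median log2 fold change of -0.28. CDC6, which loads the MCM helicase, was at 2376, 2544 and 2626 in the control libraries and 1748, 1733 and 1569 in the p50 knockout (log2 fold change -0.58, SE 0.060, adjusted p = 3.3e-07). CLSPN, a mediator of the replication checkpoint, was at 2308, 2275 and 2510.3 in the control libraries and 1578, 1421 and 1478 in the p50 knockout (log2 fold change -0.66, SE 0.063, adjusted p = 1.3e-07). CDC45, of the active helicase, and MCM10 fell with -0.59 and -0.51. Of 45 DNA polymerases and fork enzymes 28 were lower (62.2%) and 2 higher, led by POLE3, RNASEH2B, RFC3 and FEN1 (log2 fold changes -0.42, -0.53, -0.39 and -0.43). Nucleotide synthesis followed with 19 of 34 lower (55.9%) and 1 higher. RRM2, the S-phase subunit of ribonucleotide reductase, was at 8211, 8833 and 9027 in the control libraries and 5521, 4791 and 4958 in the p50 knockout (log2 fold change -0.77, SE 0.059, adjusted p = 4.2e-09). CTPS1 and PRPS1, of CTP and PRPP synthesis, fell with -0.40 and -0.35. The 19 were 12 after quantile normalization.

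Cyclins and mitotic genes showed the same direction. Of 31 G1 and S-phase regulators 18 were lower (58.1%) and 4 higher, against 19.6% and 17.0% of all tested genes. CCNE2, cyclin E2, was at 264, 302 and 312 in the control libraries and 168, 158 and 167 in the p50 knockout (log2 fold change -0.82, SE 0.10, adjusted p = 3.8e-06), CCNA2 fell from 3774 ± 144 to 2766 ± 173, CDC25A with -0.48 and MYBL2, a factor of late cell-cycle genes, from 9130.2 ± 777 to 5909.8 ± 687. Of 49 centromere and kinetochore genes 35 were lower (71.4%) and 0 higher, with ZWINT, BUB1, CENPU and NDC80 at -0.56, -0.53, -0.51 and -0.43. Of 40 mitotic kinase, anaphase-promoting complex and cytokinesis genes 31 were lower (77.5%) and 0 higher. HMMR, a spindle protein, was at 2722, 2902 and 2765 in the control libraries and 1804, 1559 and 1733 in the p50 knockout (log2 fold change -0.72, SE 0.069, adjusted p = 1.4e-07), and CCNB1, cyclin B1, at 4066, 4267 and 4580.5 in the control libraries and 3054, 2926 and 3032 in the p50 knockout (log2 fold change -0.52, SE 0.067, adjusted p = 5.5e-06). FBXO5 and PLK4 fell with -0.49 and -0.55. Of 38 genes of homologous recombination and Fanconi repair 17 were lower (44.7%) and 2 higher, with EXO1 and USP1 at -0.49 and -0.30.

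The direct tests placed the p50 knockout between groups for these genes. Of the 33 licensing genes 25 were lower in the p50 than in the RelA knockout and 20 than in the cRel-labelled libraries, with 0 higher. Against p52, in contrast, 21 were higher and 0 lower, and against the RelB-labelled libraries 29 were higher and 0 lower. The median differences were -0.27 from RelA, -0.23 from cRel-labelled, 0.27 from p52 and 0.47 from RelB-labelled libraries. Mitotic genes repeated this order: 26 and 30 of 40 were lower than in RelA and cRel-labelled libraries, and 14 and 37 were higher than in p52 and RelB-labelled libraries. Of all tested genes 20.0% and 15.9% were lower than in RelA and cRel-labelled libraries. The shares higher than in p52 and RelB-labelled libraries were 11.2% and 27.7%. By library the mitotic medians were -0.24, -0.45 and -0.34 relative to the control mean, so each p50 library was below the controls.

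**Figure D4:**
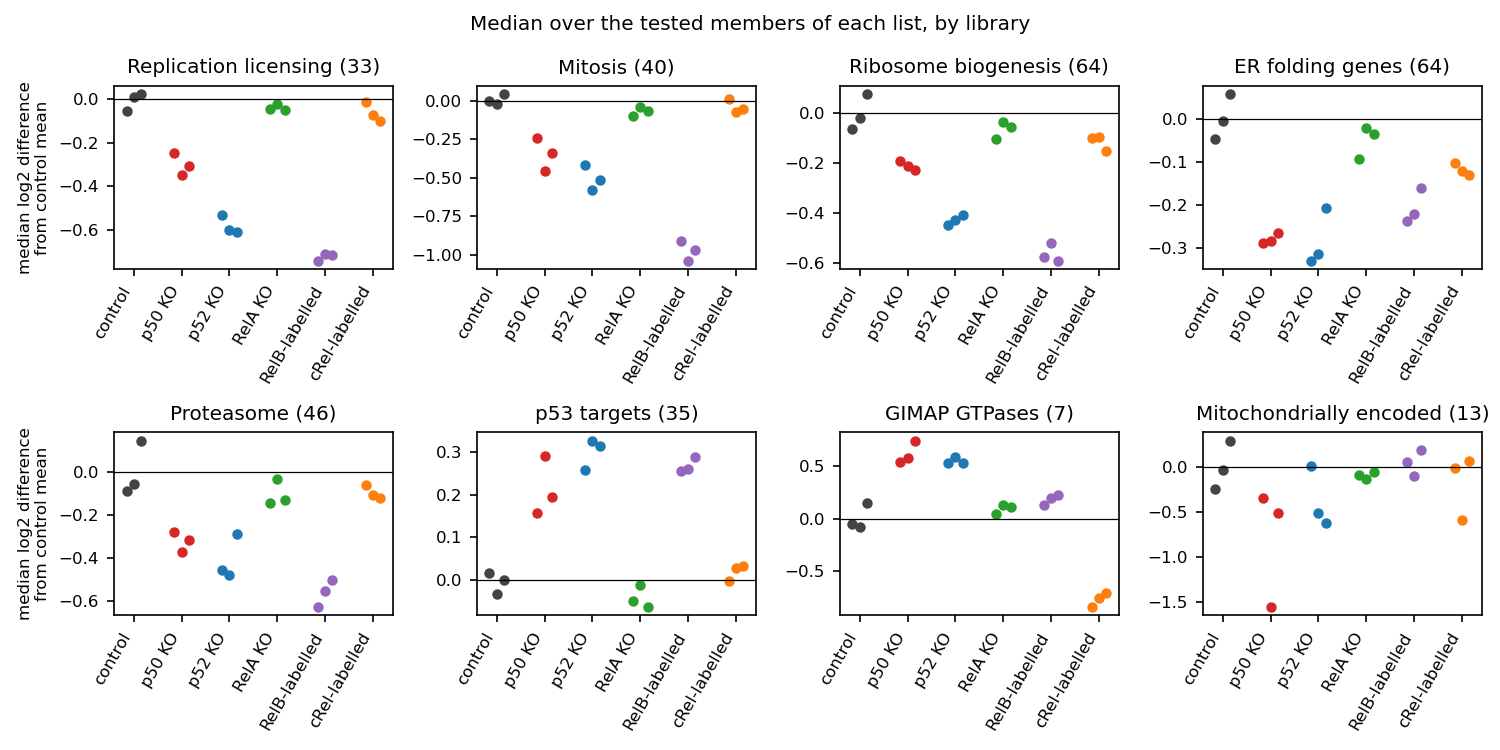
Each point is 1 library, and its height is the median, over the tested members of a gene list (number in brackets), of the log2 difference from the control mean. For replication licensing, mitosis and ribosome biogenesis the p50 libraries lie below the controls and above the RelB-labelled libraries, and for mitochondrially encoded transcripts p50 library 2 lies far below the other 2.

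Targets of p53 were higher: 16 of 35 (45.7%) rose and 1 fell, with a median of 0.19. TP53INP1 was at 807, 617 and 547 in the control libraries and 961, 1581 and 1488 in the p50 knockout (log2 fold change 1.02, SE 0.15, adjusted p = 2.0e-05) and BBC3, which encodes the death effector PUMA, at 472, 429.8 and 454 in the control libraries and 626, 839.5 and 749.8 in the p50 knockout (log2 fold change 0.70, SE 0.089, adjusted p = 5.1e-06). XPC rose from 1349 ± 29.6 to 1925 ± 161 and PHLDA3 from 651 ± 39.2 to 1004 ± 166. The classical targets CDKN1A and MDM2, named after their values were seen, did not pass the test, at -0.02 (adjusted p = 0.78) and 0.18 (adjusted p = 0.15). Direct tests found 18 of the 35 higher than in the RelA knockout and 15 higher than in the cRel-labelled libraries, but 2 higher and 6 lower than in the p52 knockout. Of all tested genes 19.2% were higher than in RelA and 15.3% than in the cRel-labelled libraries. Against p52 11.2% of them were higher and 11.0% lower. Of 18 BCL2 family genes 6 were higher (33.3%) and 4 lower (22.2%), against 17.0% and 19.6% of all tested genes. BCL2 was at 2812, 2621 and 2122 in the control libraries and 3638, 4424 and 4517 in the p50 knockout (log2 fold change 0.74, SE 0.089, adjusted p = 2.5e-06), whereas BCL2L1, which encodes the other survival protein BCL-XL, was at 2123, 2095 and 2310.0 in the control libraries and 1522, 1381 and 1325 in the p50 knockout (log2 fold change -0.63, SE 0.072, adjusted p = 1.2e-06). BNIP3L, of mitophagy, rose from 2955 ± 520.4 to 4196 ± 210.1.

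Among lists of protein production and turnover, lysosomal genes were near the background, with 16 of 80 lower (20.0%) and 15 higher, and 4 of 40 autophagy genes were lower and 9 higher. Of 64 genes of ER translocation, glycosylation and folding 42 were lower (65.6%) and 1 higher, against 19.6% and 17.0% of all tested genes. HSPA5, the ER chaperone BiP, was at 29882, 32908 and 31254 in the control libraries and 19209, 20589 and 18832 in the p50 knockout (log2 fold change -0.68, SE 0.063, adjusted p = 7.5e-08), and CALR, calreticulin, fell from 26222 ± 2113 to 17081 ± 717. The disulfide isomerases PDIA6 and PDIA4 fell with log2 fold changes of -0.48 and -0.49. Of 65 heat-shock genes 24 were lower (36.9%) and 4 higher (6.15%). HSP90AA1 and HSPA8 of the cytosol fell with -0.59 and -0.48, and DNAJB11 of the ER with -0.51. Of 46 proteasome genes 33 were lower (71.7%) and 0 higher, with PSMD12, PSMD2, PSME3 and PSMD1 between -0.43 and -0.42. Of 64 genes of ribosome biogenesis 39 were lower (60.9%) and 0 higher, and NOL11, GAR1, LTV1 and NOP56 fell with -0.45, -0.47, -0.49 and -0.41.

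Cytosolic ribosomal protein genes differed from this: of 82, only 3 were lower (3.66%) and 1 higher, below both background shares. The 3 were the variant genes RPL22L1 (-0.49) and RPL26L1 (-0.35) and RPL17 (-0.31), and RPL22 was higher (0.24). Ribosomal protein genes have many near-identical copies, so these values are uncertain. The count of lower genes was 1 without control library 3. List medians relative to the control mean were -0.03, -0.16 and 0.20 in control libraries 1, 2 and 3. In p50 libraries 1, 2 and 3 they were -0.04, 0.09 and 0.03. With this spread between controls, few calls do not show that levels were the same. Of the 64 ribosome biogenesis genes 35 were higher and 0 lower in the p50 than in the p52 knockout. Against the RelB-labelled libraries 52 were higher and 1 lower. Against the RelA knockout 28 were lower and 4 higher, and against the cRel-labelled libraries 16 and 2. For the 64 ER genes 38 were lower and 3 higher than in the RelA knockout, and 33 and 2 than in the cRel-labelled libraries. Against p52 16 of the ER genes were higher and 7 lower, and against the RelB-labelled libraries 13 and 19. Of all tested genes 11.2% were higher and 11.0% lower than in p52, and 27.7% and 25.4% than in the RelB-labelled libraries. Against RelA these shares were 19.2% and 20.0%, and against the cRel-labelled libraries 15.3% and 15.9%.

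Mitochondrially encoded transcripts were lower in 12 of 13 cases and higher in 0, with a median of -0.85, but 1 library carried much of the difference. Of all tested genes 19.6% were lower and 17.0% higher. MT-CO3 was at 102940.0, 118910.0 and 149410.0 in the control libraries and 88140.0, 41538 and 80423 in the p50 knockout (log2 fold change -0.88, SE 0.21, adjusted p = 0.0021), and MT-ND1 at 39184, 47138 and 57888 in the control libraries and 33837, 16180.0 and 31017 in the p50 knockout (log2 fold change -0.88, SE 0.21, adjusted p = 0.0025). MT-CO2 and MT-ATP6 fell with -0.71 and -0.92. For the whole list the medians relative to the control mean were -0.35, -1.55 and -0.51, so library 2 was far lower than the other 2. Without p50 library 2 the count of lower transcripts was 3. These transcripts overlap in part, and reads of neighbours may be shared.

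Nuclear genes of mitochondria were lower in smaller shares. Of 75 mitochondrial ribosomal proteins 30 were lower (40.0%) and 0 higher, with MRPL22, MRPL3, MRPS10 and MRPL50 at -0.49, -0.33, -0.28 and -0.33. Of 84 nuclear-encoded respiratory subunits 24 were lower (28.6%) and 0 higher, and 4 genes of ATP synthase led, with ATP5J at 2096, 2107 and 2746 in the control libraries and 1706, 1182 and 1683 in the p50 knockout (log2 fold change -0.61, SE 0.12, adjusted p = 4.0e-04) and ATP5B, ATP5G1 and ATP5C1 at -0.27, -0.39 and -0.29. Without control library 3, which stood apart in transcript length, these counts were 14 and 5, and without p50 library 2 they were 17 and 7. The 24 were 12 after quantile normalization. Against the p52 knockout 0 of the 84 respiratory genes differed, where 22.2% of all tested genes did. Of 28 glycolysis genes 8 were higher (28.6%) and 3 lower (10.7%), against 17.0% and 19.6% of all tested genes. PFKFB4, a regulator of phosphofructokinase, was at 949, 661 and 672 in the control libraries and 1456, 1689.6 and 1672 in the p50 knockout (log2 fold change 1.09, SE 0.12, adjusted p = 4.7e-07), ENO2 rose from 2107 ± 204 to 3329 ± 316 and ALDOC from 1801 ± 379 to 2793 ± 261. The glucose transporter gene SLC2A1 went the other way and was p50-only, at 2537, 2919 and 2709 in the control libraries and 1959, 1817 and 1880.3 in the p50 knockout (log2 fold change -0.53, SE 0.076, adjusted p = 2.0e-05).

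Developmental signalling and matrix genes were higher more often than lower. Of 34 NOTCH pathway genes 10 were higher (29.4%) and 1 lower, against 17.0% and 19.6% of all tested genes. DTX4, a ubiquitin ligase of the Deltex family, was at 4423, 4051 and 3886 in the control libraries and 6266, 6832 and 6796 in the p50 knockout (log2 fold change 0.69, SE 0.056, adjusted p = 1.0e-08). RBPJ, the DNA-binding factor of NOTCH that EBV proteins also use, rose from 2769 ± 129 to 3392 ± 267, and RFNG from 526 ± 57.8 to 667 ± 11.4. DTX3L, p50-only, fell from 592 ± 23.5 to 464 ± 26.3. Of 30 WNT pathway genes 10 were higher (33.3%) and 2 lower. The 10 include LEF1, which passed the limit on the mean only through the p50 libraries. LRP5, a WNT coreceptor, was at 999, 1155 and 1077 in the control libraries and 1512, 1573 and 1503 in the p50 knockout (log2 fold change 0.51, SE 0.066, adjusted p = 5.9e-06), and the ligand gene WNT5A at 776, 784 and 672 in the control libraries and 1087, 1126 and 1041 in the p50 knockout (log2 fold change 0.55, SE 0.087, adjusted p = 5.2e-05). FZD3, a WNT receptor gene, was p50-only and rose from 276 ± 16.2 to 392 ± 46.6, and the kinase gene GSK3A fell from 1268 ± 56.6 to 1022 ± 92.8. Both counts of 10 include genes with few reads, and were 6 each among genes with a mean of at least 100.

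Of 59 collagens, laminins and matrix enzymes 19 were higher (32.2%) and 7 lower, against 17.0% and 19.6% of all tested genes. SDC1, the plasma-cell proteoglycan CD138, was at 965, 923 and 889 in the control libraries and 1705, 1673 and 1694 in the p50 knockout (log2 fold change 0.87, SE 0.060, adjusted p = 1.3e-09). SPARC, a collagen-binding matrix protein, was p50-only and was at 1281, 1317 and 1362 in the control libraries and 2351, 2209.9 and 2308 in the p50 knockout (log2 fold change 0.79, SE 0.055, adjusted p = 1.3e-09). COL1A1, a fibrillar collagen chain, was p50-only in the other direction, at 1124, 1318 and 1309 in the control libraries and 707, 984 and 718 in the p50 knockout (log2 fold change -0.65, SE 0.12, adjusted p = 2.1e-04). LAMC1 rose from 2328 ± 252 to 3279 ± 198, and ADAM23 fell from 4909 ± 173 to 3385 ± 254. Of 67 genes of intermediate filaments, lamins, actin and myosin 22 were lower (32.8%) and 15 higher. VIM, vimentin, was at 3286, 3272 and 3831 in the control libraries and 1476, 1672 and 1596 in the p50 knockout (log2 fold change -1.13, SE 0.072, adjusted p = 2.9e-10). LSP1, a leukocyte actin-binding protein, was p50-only and was at 5972, 5493 and 6548 in the control libraries and 3248, 4047 and 3622 in the p50 knockout (log2 fold change -0.72, SE 0.078, adjusted p = 5.6e-07). TPM3, a tropomyosin, fell from 18002 ± 603 to 13882 ± 412, and PLS1, a plastin, rose from 67.8 ± 7.51 to 149 ± 8.51. The 22 lower were 13 after quantile normalization.

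**Figure D5:**
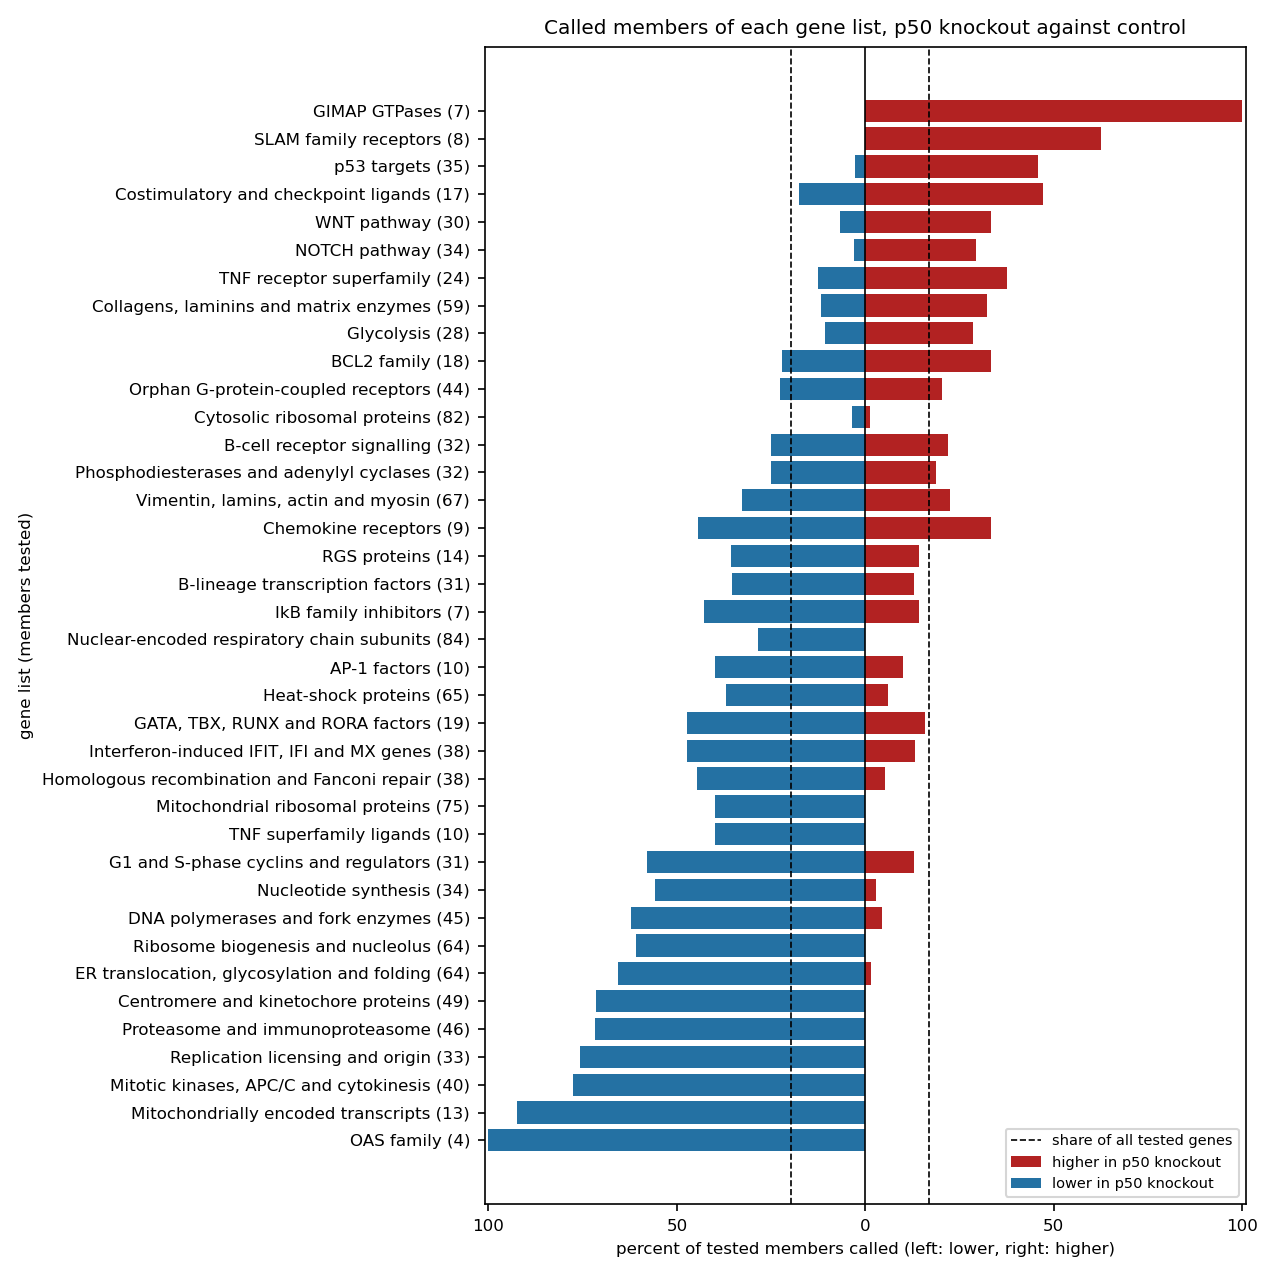
Bars give the percent of tested members of each gene list called lower (left) or higher (right) in the p50 knockout, and dashed lines the shares of all tested genes, 19.6% and 17.0%. Division, proteasome, ER and OAS lists extend far left of the background, GIMAP, SLAM and p53 lists right of it, and cytosolic ribosomal proteins on neither side.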

How the data were processed

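Per the submitters' processing notes, STAR 2.5.2b (aligner), featureCounts 1.5.1 (counting) and DESeq2 1.14.1 (normalisation) were used with build GRCh37. The annotation, gene filters and strand setting are not stated there, so it is not known whether overlapping and antisense genes were separated. Per the labels' protocols, puromycin (3 µg/ml, 5 days) followed transduction, and 1 µg of total RNA entered a directional polyA library kit. The deposited values were a normalised read signal. Dividing each library by its own unit returned whole reads for 100% of 308790 values (tolerance 0.01). Libraries held 15.2 to 37.5 M reads, each read being worth 0.646 to 1.46 units.

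Log2(value + 1) of all 18 libraries entered 1 limma 3.58.1 trend fit, two-sided, with a mean for each of the 6 groups of 3. P-values were adjusted by Benjamini-Hochberg over the 12381 tested genes of a contrast, and fold changes on this scale understate those of genes with few reads. On these data the count tests edgeR 4.0.16 (TMM) and DESeq2 1.42.0 on the recovered reads called 4588 and 4589 genes. On simulated data for this comparison (5 draws of 12381 genes, 200 changed in each), limma, edgeR and DESeq2 recovered 91.8%, 93.4% and 89.6% of genes changed by 1 on the log2 scale and 55.8%, 58.0% and 57.6% of those changed by 0.5. Unchanged genes made up 3.91%, 4.42% and 10.9% of their calls against a nominal 5%, so the DESeq2 alternative called too many genes in the simulation. The simulation used the same spread setting for every gene and changed far fewer genes than the 36.7% called in the data. Its rates may therefore differ from those in the data. Other settings were pseudocounts 0.5 and 5, no filter, a mean of at least 100, the 6 libraries alone, a replicate block, quantile normalization, a correction for transcript length (GENCODE 29 exons, found for 99.85% of tested genes) and leaving out each library.

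Replicate numbers were not treated as pairs against the control, since same-numbered p50 and control libraries correlated at -0.05, -0.05 and -0.02. Same-numbered p50 and cRel-labelled libraries correlated at 0.200, 0.189 and 0.165, above 0.1 in all 3 pairs, a pairing found in the data and not stated in the labels.

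The members and gene lists were chosen with earlier results of these data known. Genes named were the 5 subunits, the 15 highest and 15 lowest p50-only genes with a mean of at least 100 in the higher group and no overlap with the controls, and from each list up to 4 called members of smallest p with that mean; others are said to be chosen after their values were seen, or stand in a count. Not all lists examined are reported, and a few genes the rule names are not reported here.

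Promoters were RefSeq's, of build GRCh38.p14, matched by symbol.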

Additional observations from a re-analysis of the deposited data

How the results depend on the processing

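Counts of p50-only genes ran from 64 to 87 higher and 86 to 121 lower over the other settings and from 53 to 77 and 81 to 110 with a library left out, and 77 genes (30 higher, 47 lower) met the rule in every setting and with every library left out in turn. With the replicate block, p50 knockout and control differed in 4870 genes, and 87 higher and 121 lower genes were p50-only, with all 175 kept. Pairing changed 1 count by over 1.5 times, cytosolic ribosomal proteins lower, to 5. Quantile normalization took the lower members to 5 for B-cell receptor signalling, 13 for actin and related genes, 12 for nucleotide synthesis and 12 for respiratory subunits. Requiring a mean of at least 100 took RGS genes lower to 2 and NOTCH and WNT genes higher to 6 and 6. Leaving out 1 library at a time gave 883 to 1567 genes higher against p52, 5 to 8 costimulatory genes higher, and members lower of 2 to 4 for AP-1, 1 to 5 for cytosolic ribosomal proteins, 3 to 13 for mitochondrially encoded transcripts, 14 to 43 for mitochondrial ribosomal proteins and 5 to 28 for respiratory subunits. The cause was not tested. The uncalled genes CDKN1A and PDE4D changed sign: CDKN1A was 0.131 after quantile normalization, 0.025 after the length correction and -0.053 to 0.023 with a library left out, and PDE4D was -0.216 to 0.067 with a library left out. In simulated data for this comparison limma recovered 55.8% of genes changed by 0.5 on the log2 scale, so differences of that size can be missed with 3 libraries per group.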
